A study of Mus musculus with 3 samples.

Results

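WT-only regions are H3K4me3 peaks of wild-type mouse hippocampus that no peak of the Huntington's disease model overlapped by 1 bp or more. They number 1019 of the 18515 peaks in the wild-type (WT) list, a share of 5.50%. Members were chosen by the positions of the peaks in both lists, so that share follows from the rule and is no finding. The other list, with 19631 peaks, came from N171-82Q mice (HD), which carry a transgene for an N-terminal fragment of mutant huntingtin driven by the mouse prion protein promoter. Both groups were adult males of a C57/DBA F1 hybrid background, and the WT mice were littermates of the transgenic ones. Each genotype had 1 library, made from the hippocampi of 3 pooled mice and read as single ends of 50 bp. The labels say that the reads of the WT and input libraries were also part of an earlier deposit. The study asked where the mark differs between the model and healthy littermates. Replication is lacking, as each genotype has a single library, so every value below describes this pair of libraries, and no p-value was computed. Whole hippocampus is a mixture, so fewer cells of a type and less of the mark per cell cannot be told apart. A WT-only region lacks an HD peak call, which need not mean that the mark is absent there. The lowest score in the HD list was 50.01, and HD signal too weak for a call was not read.

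Trimethylation of lysine 4 on histone H3 marks the nucleosomes around gene starts that are active or held ready for activation. It forms strong, wide peaks over promoters rich in CpG dinucleotides, and weaker ones at little-used promoters and at some enhancers. The WT-only peaks were divided by their distance to the next WT peak. The near class had another WT peak at a gap of up to 10 kb, and the far class had none that close.

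Most WT-only regions were in the far class, 68.4%, as were 71.6% of all WT peaks. The far class held 697 of the 1019 and the near class 322, or 31.6% (95% interval 28.8 to 34.6%). Among all WT peaks 28.4% were near. WT-only peaks made up 6.13% of the 5251 near peaks (5.50 to 6.82%) and 5.25% of the 13264 far peaks (4.88 to 5.65%). The classes thus differed little in the share of peaks that the HD list lacked. The same division of the 1825 HD-only peaks, 9.30% of their list, put 648 in the near class, 35.5% (33.3 to 37.8%). Intervals here are exact binomial ones and cover counting error over peaks only.

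Near WT-only peaks were wider than far ones at the same score. The deposited score, which rises with the strength of a call within its own list and starts at 50.01, had a median of 65.5 in the near class (quartiles 57.1 and 82.9) and 64.6 in the far class (55.4 and 78.2). Over the whole WT list the median was 843. Median width was 1243 bp near (quartiles 1048 and 1428 bp) and 1096 bp far (947 and 1265 bp), against 2268 bp for all WT peaks. In each of the 8 score bins between 50 and 200 the near WT-only peaks had the larger median width, for example 1374 against 1203 bp at scores of 80 to 100. Some bins say little: at 65 to 70 the medians were 1198 and 1158 bp. The bin at 150 to 200 held only 4 near and 10 far WT-only peaks. Among WT peaks with an HD counterpart, near peaks were wider than far ones in 6 of the 8 bins. Widths of 2 kb or more were reached by 14 near peaks, 4.35%, and by 11 far peaks, 1.58%. Far WT-only peaks were narrower than far shared peaks of like score in 7 of the 8 bins, whereas in the near class this held in 4 of the 8.

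**Figure D1:**
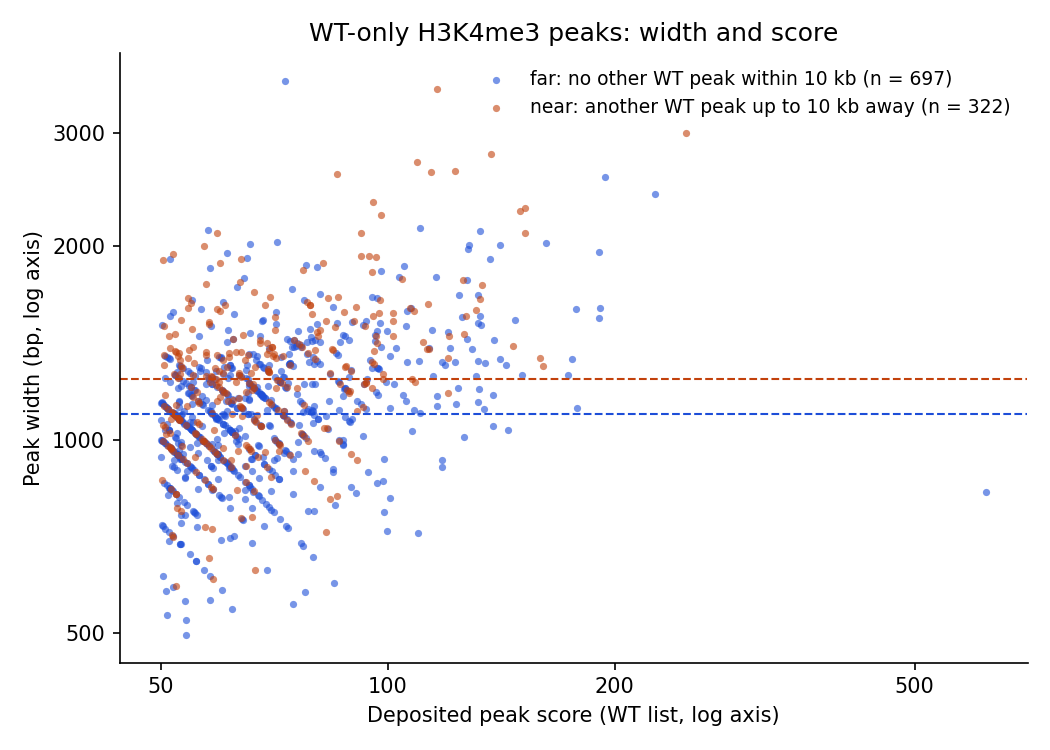
Width in bp against deposited score for each WT-only peak, both on log axes, coloured by gap class, with dashed lines at the median widths of 1243 bp (near) and 1096 bp (far). Nearly all members lie at scores below 200, many weak ones fall on a few descending lines, and the point at the far right is the far peak of 828 bp that scored 622.14.

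Weak scores went with a missing counterpart in both classes. Scores below 100 were held by 289 near members, 89.8%, and 623 far members, 89.4%. In the WT list as a whole 2784 peaks scored below 100, and 32.8% of these were WT-only. At scores from 50 to 55, 64 of 127 near peaks (50.4%, 41.4 to 59.4%) and 162 of 316 far peaks (51.3%, 45.6 to 56.9%) had no HD counterpart. At 100 to 150 these shares had fallen to 7.65% of 366 near peaks and 7.50% of 827 far peaks. The intervals of the classes overlapped in all 8 bins below 200. They overlapped least at scores of 80 to 100, where 21.5% of near peaks (16.7 to 27.0%) and 14.8% of far peaks (12.0 to 18.1%) were WT-only. Of the 3004 near and 8317 far peaks with a score of at least 500, none and 1 were WT-only.

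**Figure D2:**
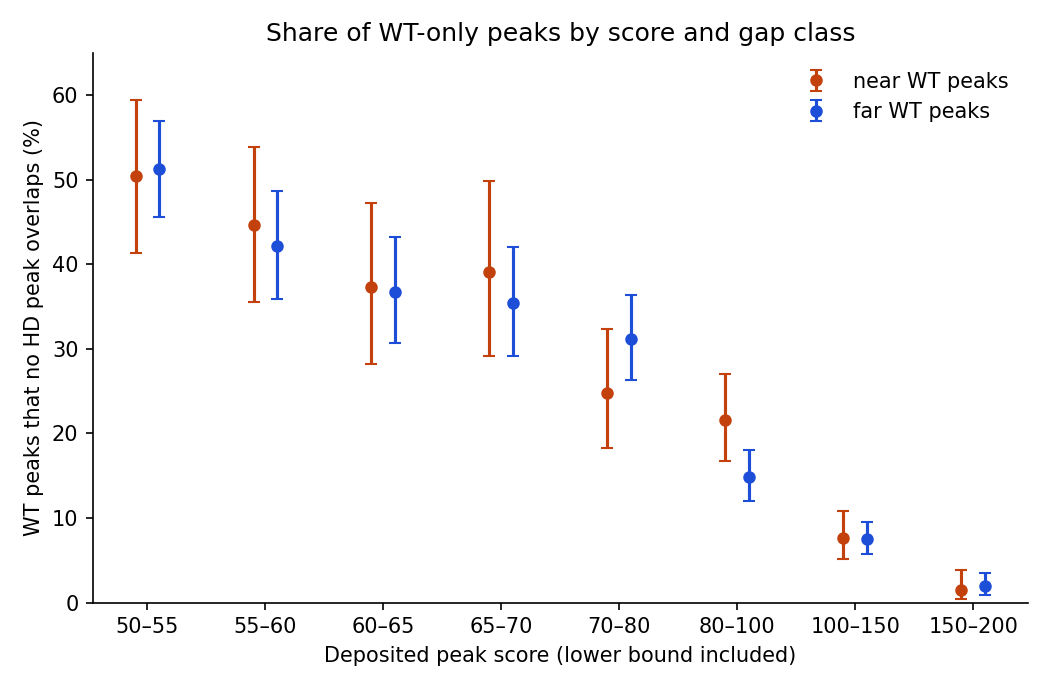
Percent of WT peaks that no HD peak overlaps, by bin of the deposited score, for near and far peaks, with exact 95% binomial intervals. Near peaks fall from 50.4% at scores of 50 to 55 to 1.52% at 150 to 200, far peaks from 51.3% to 1.92%, and the intervals of the classes overlap in these bins.

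The gap itself divided the weak peaks more finely than the limit of 10 kb. Among WT peaks with a score below 100, the WT-only share was 43.9% (38.1 to 49.9%) of the 289 whose neighbour lay between 100 bp and 2 kb away. It was 28.6% (25.6 to 31.7%) of the 896 with a gap of 2 to 20 kb, and 32.0% (29.5 to 34.6%) of the 1331 with a gap of 20 to 200 kb. Beyond 200 kb it was 44.3% (37.0 to 51.8%) of 185 peaks. Weak peaks were thus WT-only most often at gaps of 100 bp to 2 kb and at gaps over 200 kb. The 83 peaks within 100 bp of a neighbour did not share the high value, at 25.3% (16.4 to 36.0%). Median scores in these 5 bins ranged from 65.8 to 69.4. Split at a score of 65, the shares at 100 bp to 2 kb and at 2 to 20 kb were 54.4% and 41.4% among the lower peaks, and 36.0% and 19.3% among the higher ones. Beyond 200 kb they were 58.6% and 31.6%.

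HD-only peaks were distributed over the gaps in another way, except below 100 bp, where both lists had their lowest share (26 of 134 weak HD peaks, 19.4%, 13.1 to 27.1%). Whether the overlap rule itself lowers the share at such short gaps was not tested in either list. Among HD peaks with a score below 100, of which 50.5% were HD-only, the share was 41.6% (36.8 to 46.6%) at 100 bp to 2 kb, 56.3% (53.1 to 59.5%) at 2 to 20 kb and 43.2% (34.8 to 51.8%) beyond 200 kb. The value at 100 bp to 2 kb was low only through gaps of 0.1 to 0.5 kb, with 27.4% (21.3 to 34.2%). At 0.5 to 1 kb the HD share was 54.8% and at 1 to 2 kb 55.9%, close to that at 2 to 20 kb. WT shares in the same bins were 45.5, 40.5 and 44.7%. On the 19 autosomes taken singly, the weak WT peaks had the larger share at 100 bp to 2 kb than at 2 to 20 kb on 17, while the weak HD peaks did so on 3. These counts were not split at 0.5 kb. Some of these chromosome values rest on as few as 7 peaks. Scores of the lists are not on a common scale, and the depth of the libraries is unknown, so the height of the HD values cannot be set against the WT values.

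**Figure D3:**
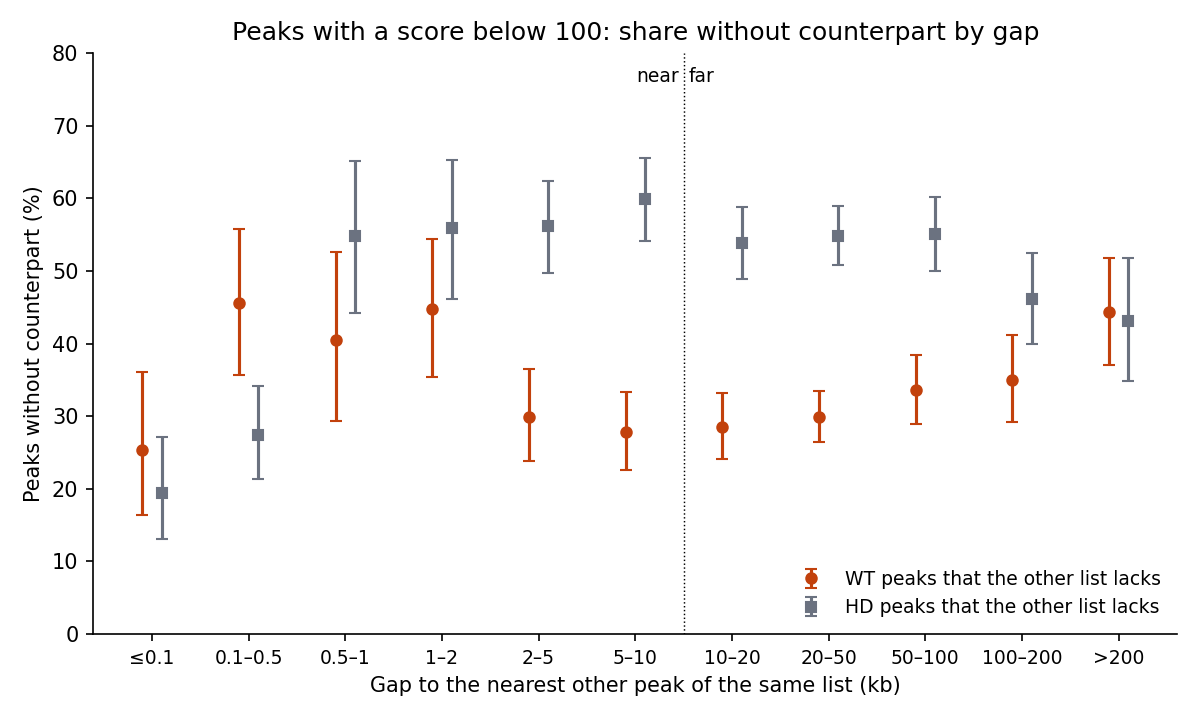
Percent of peaks with a score below 100 that have no counterpart in the other list, by the gap in kb to the nearest other peak of their own list, with exact 95% binomial intervals and a dotted line at the limit of 10 kb. WT peaks run from 25.3% below 0.1 kb through 45.5% at 0.1 to 0.5 kb to a low of 27.8% at 5 to 10 kb and up to 44.3% beyond 200 kb, while HD peaks are highest, at 59.9%, at 5 to 10 kb.

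WT-only regions were most frequent among the weak peaks of peak-poor stretches. Local density was taken as the number of strong WT peaks (score 200 or more) whose centres lay within 500 kb on either side. Only 3 WT-only peaks are strong by this measure, so the count hardly depends on the members. With 0 to 2 such neighbours, 188 of 434 weak WT peaks were WT-only, 43.3% (38.6 to 48.1%). With 6 to 10 the share was 32.8% (29.6 to 36.1%), and with 21 or more it was 21.5% (16.8 to 26.9%). Weak HD peaks ran the opposite way on the same measure, from 44.7% HD-only (39.9 to 49.6%) with 0 to 2 strong WT neighbours to 58.8% (52.9 to 64.6%) with 21 or more.

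The direction was shared by the chromosomes. On all 19 autosomes weak WT peaks with fewer than 11 strong neighbours were WT-only more often than those with 11 or more, 37.1% against 24.2% in total. For weak HD peaks the dense stretches had the larger share on 16 of 19 autosomes, 56.7% against 47.5%. With every WT peak counted in place of the strong ones, the WT-only share was 38.3% in sparse and 27.2% in dense stretches, and the order again held on 19 autosomes. Split by gap class and counting every WT peak, weak near peaks went from 60.7% WT-only (17 of 28) with 0 to 2 in the window, through 40.5% with 3 to 5, to 24.9% with 21 or more. Weak far peaks did not fall throughout: the share was 38.6% (31.0 to 46.7%) with 0 to 2, 44.0% (38.9 to 49.3%) with 3 to 5 and 19.6% (14.3 to 25.8%) with 21 or more. When the neighbours of weak HD peaks were counted in the WT list at any score, their shares had no single direction, with 87 of 145 HD-only at 0 to 2 and 56.4% at 21 or more against 47.9 to 48.8% between.

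**Figure D4:**
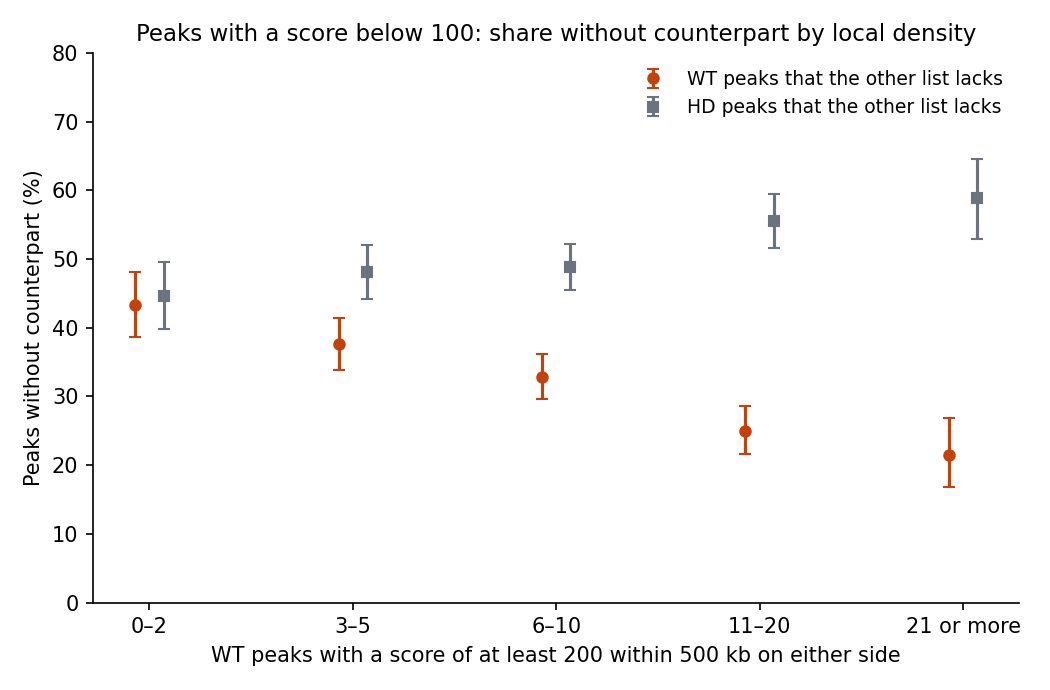
Percent of peaks with a score below 100 that have no counterpart in the other list, by the number of strong WT peaks within 500 kb on either side, with exact 95% binomial intervals. The WT points fall from 43.3 to 21.5% and the HD points rise from 44.7 to 58.8%.

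By chromosome, the WT-only share ranged over the autosomes from 3.87% on chromosome 7 to 7.87% on chromosome 16. Among weak WT peaks these chromosomes also had the lowest and highest shares, 25.3% and 41.7%. On X the near class had 2 WT-only peaks of 121 (1.65%, 0.201 to 5.84%) and the far class 11 of 455 (2.42%, 1.21 to 4.28%). The autosomal shares were 6.24% (5.59 to 6.93%) and 5.36% (4.97 to 5.76%). The far intervals did not overlap, and the near ones did. Weak peaks were fewer on X, 60 of 576, and of these 13 were WT-only, 21.7% (12.1 to 34.2%), against 33.0% (31.2 to 34.8%) of the 2724 weak autosomal peaks, with overlapping intervals. No WT-only peak lay on Y.

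The nearest WT peak had an HD counterpart for 288 of the 322 near members. That is less often than among near shared peaks, of which 294 of 4929 had a WT-only peak as nearest WT peak. In 277 of the 288 cases the HD peak closest to the WT-only peak was that counterpart. Taking the nearest WT peak as the neighbour makes this likely. Over all 322 the neighbour had a median score of 973 and a median width of 2634 bp. For near peaks of score below 100 that both libraries had, the neighbour had a median score of 490 and a median width of 2149 bp, against 948 and 2593 bp for WT-only peaks below 100. Weak near peaks without an HD call thus sat beside stronger and wider neighbours than weak near peaks called in both libraries. Their gaps differed too, with medians of 1.93 and 3.21 kb, and neighbours were not compared at like gap. Among weak near HD peaks the order was the reverse. There the neighbour's median score was 489 for HD-only and 780 for shared peaks, and its median width 1872 and 2034.5 bp. Their median gaps were 3.10 and 0.931 kb. Over all 322 near WT-only peaks the median gap was 1.90 kb to the WT neighbour and 2.66 kb to the nearest HD peak. Within 2 kb of the WT neighbour lay 167 members, 51.9%, and 38 members had a WT peak within 10 kb on both sides.

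At gaps up to 2 kb, the HD edge more often lay farther inside on the side of the WT-only peak, in 91 of 150 shared neighbours. At gaps over 2 kb this was so in 63 of 138, and over all gaps in 154 of 288. Among the 150 shared neighbours at a gap of up to 2 kb, the HD edge facing the WT-only peak lay inside the WT edge in 112, by a median of 126.5 bp over all 150 (quartiles -2 and 391 bp). At the opposite edge of the same peaks it lay inside in 94, by a median of 57 bp (quartiles -74 and 186 bp). A retreat of more than 500 bp was seen in 28 facing edges and 3 opposite edges. Among the 138 neighbours at gaps over 2 kb the medians were 56.5 bp facing and 105 bp opposite, with 19 and 7 retreats of more than 500 bp. The mirror case, 196 shared HD peaks within 2 kb of an HD-only peak, leaned the same way. There the WT edge lay inside in 102 facing and 77 opposite edges, by more than 500 bp in 12 and 6. The median of facing minus opposite was 33 bp there and 91 bp beside WT-only peaks. Over all gaps these medians were 31 and 33.5 bp. The 212 neighbours within 2 kb of a weak peak that both libraries had showed medians of -23.5 bp facing and 29 bp opposite. The lower quartile at the facing edge was -541 bp. The overlap rule chose this set too, and an HD peak that spans both peaks puts the facing edge outside. It is therefore no neutral baseline. At any gap up to 10 kb, 15 facing and 16 opposite edges of 546 such neighbours exceeded 500 bp. These edges belong to the same WT against HD contrast that chose the members, since an HD peak reaching farther out could have overlapped the member, so they are a description with no test.

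**Figure D5:**
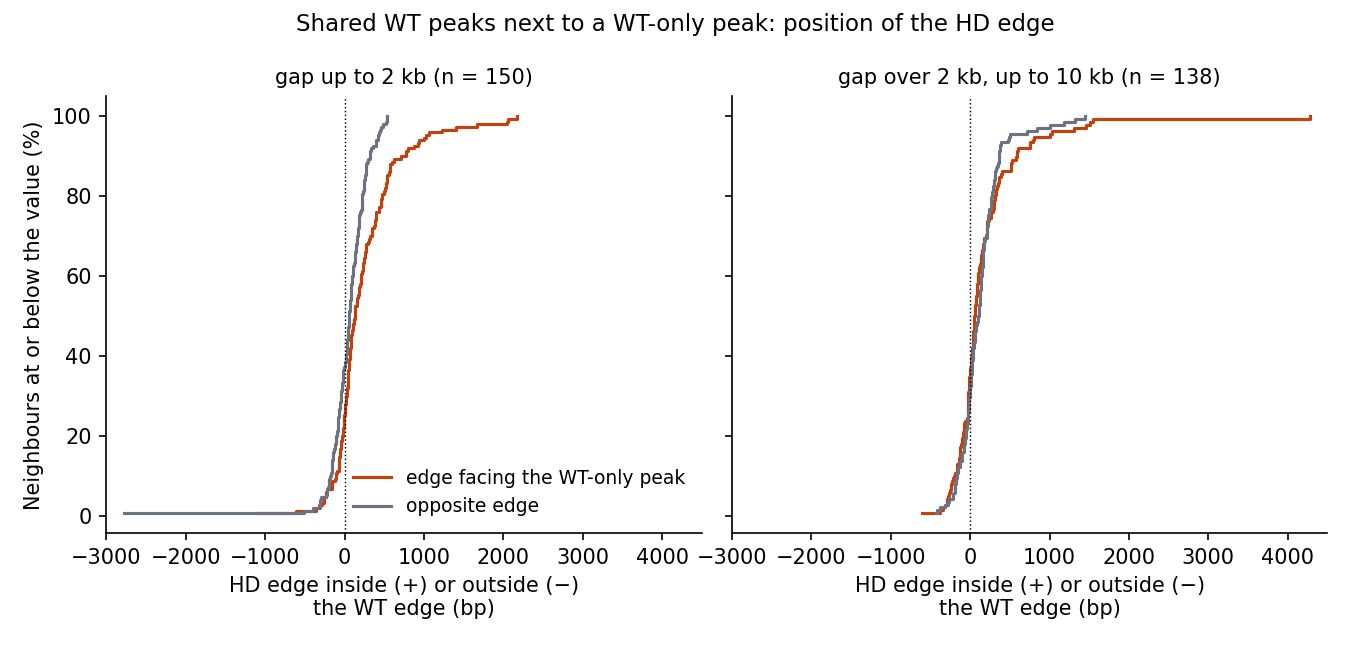
Cumulative percent of the shared WT peaks beside a WT-only peak, by how far the HD edge lies inside (positive) or outside (negative) the WT edge in bp, for the edge facing the WT-only peak and the opposite edge, at gaps up to 2 kb (n = 150) and over 2 kb (n = 138). At short gaps the facing curve lies to the right, with 28 neighbours beyond 500 bp against 3 for the opposite edge.

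The 8 near members of highest score differed in this respect, with the larger retreat at the facing edge in 4 and at the opposite edge in 4. On chromosome 2 at 132608527 to 132611519, a WT-only peak of 2993 bp with a score of 248.76 began 179 bp after a WT peak of 1928 bp. The HD peak there covered 1593 bp and ended 21 bp inside the WT neighbour on the facing side and 314 bp inside on the other. Of 1116 other WT peaks whose score was within 1.25-fold, 1 was WT-only, and 96.1% were narrower. On chromosome 6 at 114866203 to 114868494 the member spanned 2292 bp and scored 152.22. Together with its neighbour it covered 5897 bp in WT, against 2237 bp in HD, where the facing edge lay 1396 bp inside and the opposite edge 28 bp outside. A like case on chromosome 13 ran from 94947701 to 94949793, scored 152.18 and had a gap of 70 bp. There WT covered 6895 bp and HD 3471 bp, with edges 1063 bp inside (facing) and 268 bp inside (opposite).

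The other near members among these 8 differed in their distance from the neighbour. On chromosome 11 at 67413392 to 67415660 (score 149.63) the gap was 6 bp, and on chromosome 14 at 52930748 to 52933522 (score 137.06) it was 398 bp. Their facing HD edges lay 209 and 383 bp inside, against 241 and 159 bp at the opposite edges. The member on chromosome 3 at 17949575 to 17950970 scored 146.37 and lay 1122 bp from its neighbour, with edges 111 bp (facing) and 527 bp (opposite) inside. On chromosome 17 at 47288083 to 47289384 the score was 160.82 and the gap 5.93 kb, and the HD edges lay 1513 bp (facing) and 286 bp (opposite) inside. The member on chromosome 1 at 65158689 to 65160028 (score 159.35) lay 8.96 kb from a neighbour that scored 129.29, whose HD edges lay 28 bp outside (facing) and 218 bp inside (opposite). Of these 8 highest scoring near members, the 5 with a gap under 1 kb were 2093 to 2993 bp wide and the other 3 were 1302 to 1396 bp wide. The widest near member, on chromosome 7 at 30097471 to 30100977, measured 3507 bp and scored 116.37. It lay 1.28 kb from a WT peak of 4380 bp over which HD had 3364 bp.

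Far WT-only peaks lay farther from the next WT peak than far shared peaks did. Their median gap to the next WT peak was 49.1 kb (quartiles 24.6 and 112 kb), against 39.4 kb (21.1 and 80.2 kb) for far peaks that both libraries had. A gap over 200 kb was found for 96 of 697, 13.8% (11.3 to 16.6%), and for 7.35% (6.90 to 7.82%) of far shared peaks. The nearest HD peak lay at a median of 49.0 kb. An HD peak within 10 kb was present for 15 far members. Each of these HD peaks was HD-only, which the class rule nearly fixes, since a WT counterpart would lie about as close, and their scores ran from 50.45 to 102.48. In 5 of the 15 the WT-only and the HD-only peak were within 1 kb of each other, so both libraries had a weak call in nearly the same place without an overlap.

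The highest scoring far member, on chromosome 9 at 24345993 to 24346820, stood apart from the class. Its score was 622.14 and its width 828 bp. The 1690 other WT peaks whose score was within 1.25-fold measured 2193 bp at the median, 0.0592% of them were narrower, and 0 were WT-only. The next 7 far members by score ranged from wider than 8.07% to wider than 94.4% of WT peaks of like score. That on chromosome 10 at 5056483 to 5058886 (score 225.93, 2404 bp) had another WT-only peak as its nearest WT peak, 70.9 kb away. On chromosome 17 at 51899525 to 51901125 (score 191.11, 1601 bp) the nearest WT peak, 28.4 kb away, and the nearest HD peak, 43.9 kb away, each lacked a counterpart. The member on chromosome 14 at 21435783 to 21438345 (score 194.07, 2563 bp) had an HD-only peak with a score of 89.17 at 8.29 kb.

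Chromosome 6 carried a pair of the 8 far members of highest score. One, at 93015537 to 93017083 (score 190.86), lay 121 kb from any WT peak, and the other, at 65768074 to 65770029 (score 190.38), lay 37.9 kb from the next. The remaining ones were on chromosome 18 at 64625585 to 64626704 (score 178.19) and on chromosome 17 at 83944698 to 83946295 (score 177.88). They had neighbours 20.5 and 29.7 kb away that both libraries marked. The widest far member was the last WT peak on X, at 166434357 to 166437968, 3612 bp wide at a score of 73.02. The median over WT peaks of like score was 1191 bp, and 100% of them were narrower. Its neighbour at 15.7 kb was also wide for its score, 6056 bp at 141.90, and HD covered it with 4146 bp.

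The most isolated members were weak. On chromosome 17 at 61746207 to 61746869 a peak of 663 bp (score 54.68) lay 1482 kb from the next WT peak, and the nearest HD peak, an HD-only one, was 1210 kb away. Those on chromosome 1 at 19195739 to 19196530 (score 85.20) and on chromosome 14 at 111153503 to 111154792 (score 97.01) lay 1146 and 918 kb from the next WT peak.

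Some WT-only peaks came in pairs, and none in longer runs. Consecutive WT-only peaks up to 10 kb apart formed 19 pairs, with a median gap of 2338 bp, and 9 of these pairs had no further WT peak within 10 kb. Of the near members, 34 had a WT-only peak as nearest WT peak, 10.6% (7.42 to 14.4%), against 5.96% (5.32 to 6.66%) of near shared peaks. At scores below 100 these shares were 11.4% (7.99 to 15.7%) and 5.04% (3.40 to 7.16%). In the far class these shares were 8.46% (6.51 to 10.8%) and 5.38% (4.99 to 5.79%), and among peaks with a score below 100 they were 7.70% and 6.78%, with overlapping intervals. Chosen after their values were seen, 3 pairs show the range. On chromosome 9 peaks of 2613 and 2589 bp began at 57792520 and 57797471, with scores of 122.62 and 85.73, and lay 0.682 kb from the nearest HD peak. On the same chromosome peaks at 32443498 and 32453235 had scores of 132.43 and 51.08 and lay 24.9 kb from any HD peak. On chromosome 13 a pair at 84895369 and 84897384, with scores of 78.85 and 50.28, lay 405 kb from the nearest WT peak outside the pair and 406 kb from any HD peak.

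A few bp separated members from shared peaks at the limit of the rule. Just inside it, a member on chromosome 8 (10999475 to 11000681, score 59.65) lay 14 bp from an HD peak. Members on chromosome 7 (17404721 to 17406098, score 69.53) and chromosome 11 (30163259 to 30164882, score 113.01) lay 22 and 26 bp from one. Just outside it, shared peaks on chromosome 2 (57901149 to 57902038, score 61.74) and chromosome 5 (121102078 to 121103546, score 61.84) each had 7 bp in common with an HD peak, and 1 on chromosome 11 (105947710 to 105948578, score 56.86) had 23 bp. An HD peak within 1 kb was present for 97 of the 322 near members, 30.1%, and for 5 of the 697 far members. This difference follows largely from the class rule, since near members have a WT peak close by that HD mostly shares. Of the near members, 22 had no HD peak within 10 kb, and 20 of those had a WT-only neighbour. The class rule nearly fixes this as well, since a shared neighbour brings an HD peak about as close. At the class limit, near members with gaps of 9.81 and 9.75 kb lay on chromosome 13 at 39929894 to 39931230 and 40938586 to 40939546. Far members with gaps of 10.05 and 10.06 kb lay on chromosome 16 at 56048628 to 56049449 and chromosome 1 at 121388474 to 121389597.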

How the data were processed

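The authors deposited 1 peak list per H3K4me3 library, with positions and a score. The peak names carry the name MACS; no version, settings or control for it is given in the sources used here. Per the submitters' processing notes, CASAVA 1.8.2, BWA 0.5.9 and SAMtools were used, with builds NCBIM37 and mm9. Positions are mm9, counted from 1. The deposited score is on the scale of its own list and was used only within it. No read counts are given, so depth is unknown. The input was not used here.

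Gaps, overlaps and shares were computed with scipy 1.17.1, pandas 2.3.3 and numpy 2.4.6 under Python 3.11.15, and plots with matplotlib 3.10.9. Intervals of shares are exact (Clopper-Pearson) 95% intervals. The code was tested on simulated data, which checks that it applies the rule and nothing more. Named regions are, per class, the 8 of highest score and the 3 widest, then the 3 farthest from WT peaks, the 3 on each side of the overlap rule and the 2 on each side of the gap limit. Members and rules were chosen with earlier results of these data known; the bins of gap and density, the edge comparison and the pairs were chosen after their values were seen.

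Neighbouring genes, markers of the tissue and sequences were not analysed here, since the annotation and sequence tables at hand are of GRCm38.p6, another build.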

Additional observations from a re-analysis of the deposited data

How the results depend on the processing

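Of 78 values recomputed under 9 alternatives, 55 stayed within 1.5-fold (counts) or within the main value's 95% interval (shares and medians). The others follow. With only WT peaks of score 100 or more there were 107 members, 33 near and 74 far (0.752 and 0.652% of their classes), with median widths of 1583 and 1334 bp and median scores of 120.29 and 126.75. With only HD peaks of score 100 or more as counterparts there were 2222 members, 650 near and 1572 far (12.4 and 11.9%), with a far median width of 1145 bp and median scores of 70.6 near and 69.6 far. Joining peaks within 1 kb left 213 near members, 4.85% of near peaks, below the far share of 5.14%. The near share was 7.12% when an HD peak had to cover 50% of the WT peak, 4.28% when one within 1 kb sufficed, 7.34% with a class limit of 5 kb and 5.46% with 20 kb. The near share was thus below the far share in 3 settings: joined peaks, an HD peak within 1 kb (far share 5.22%) and a limit of 20 kb (far share 5.54%). Shares near a gene start were not run. No paired analysis was possible because neither genotype has more than 1 library.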
